A study of Mus musculus with 15 samples.

Results

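The genes described here act on collagen between its synthesis and its assembly: Creb3l1, a membrane-bound transcription factor, and 9 enzymes or chaperones that fold, hydroxylate and cross-link collagen chains. The 9 are Serpinh1, P4ha1, P4ha2, Plod1, Plod2, Plod3, Lox, Loxl1 and Loxl2. These 10 genes were taken by symbol from a table of 55335 mouse gene identifiers, and all 10 were found and passed the filter on low values (a mean of at least 0.5 FPKM). FPKM is a count of fragments scaled by gene length and by the library's total. The genes were chosen by function, with differences between the genotypes in these FPKM values already known. By GENCODE vM21, Creb3l1 lies on the minus strand at chr2:91982328-92024502 (GRCm38), and the others lie on chromosomes 4 (Plod1), 5 (Plod3), 7 (Serpinh1), 9 (Plod2 and Loxl1), 10 (P4ha1), 11 (P4ha2), 14 (Loxl2) and 18 (Lox), each a protein-coding gene. Creb3l1 in particular had already been seen at a lower level in Adamts16+/H355Q hearts, so its values in comparisons with that genotype are given as a description, with no p-value.

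RNA was sequenced from hearts of mouse embryos at E14.5, a stage at which the valves are being shaped. There were 4 libraries of Adamts16+/- (1 knocked-out copy of Adamts16), 4 of Adamts16+/H355Q (1 copy with an amino acid change) and 7 of WT. Adamts16 encodes a secreted metalloprotease, and the study asked how its deficiency disturbs the extracellular matrix of the valve. The labels give no strain, and do not say whether a library held 1 heart or several. In 9 of the 15 libraries the female-specific transcript Xist and the Y-linked gene Ddx3y were both above 1 FPKM, so p-values measure the spread between libraries that may hold pooled embryos.

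Collagen chains enter the endoplasmic reticulum singly. Prolyl 4-hydroxylases make the hydroxyproline that keeps the triple helix stable at body temperature, lysyl hydroxylases make the hydroxylysine used for sugar attachment and for strong cross-links, and the chaperone HSP47 binds the finished helix. After secretion, copper-dependent lysyl oxidases turn lysine side chains into aldehydes that cross-link collagen and elastin, which gives heart valves and great arteries their tensile strength. Creb3l1 is released from the membrane by Golgi proteases and, in mouse osteoblasts, is known to activate a type I collagen gene.

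The upstream sequences shown are those of P4ha1 and Plod1, which were higher in Adamts16+/- than in Adamts16+/H355Q hearts, and of P4ha2, the close relative of P4ha1. RefSeq windows (GRCm38.p6) were matched for 5 of the 10 genes (these 3, Plod3 and Serpinh1). Plod3 was also higher in that comparison, and its window, which overlaps an exon of Znhit1, is not shown. Each line gives the 250 bases before the RefSeq transcription start, 5′ to 3′ on the gene's strand, with the core of the hypoxia response element, ACGTG on either strand, in capitals.
P4ha1, chr10:59323046-59323295, plus strand: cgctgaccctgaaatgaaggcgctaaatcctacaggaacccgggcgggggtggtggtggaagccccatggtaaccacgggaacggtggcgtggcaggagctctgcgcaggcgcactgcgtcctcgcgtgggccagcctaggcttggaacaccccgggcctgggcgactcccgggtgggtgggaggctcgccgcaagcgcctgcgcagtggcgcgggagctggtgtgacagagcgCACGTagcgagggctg
P4ha2, chr11:54100674-54100923, plus strand: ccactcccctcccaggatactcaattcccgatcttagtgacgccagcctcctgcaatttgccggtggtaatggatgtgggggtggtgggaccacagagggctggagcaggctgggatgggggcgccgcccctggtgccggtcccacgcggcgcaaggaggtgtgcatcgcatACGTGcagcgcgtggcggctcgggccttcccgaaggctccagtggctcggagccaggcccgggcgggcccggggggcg
Plod1, chr4:147936777-147937026, minus strand: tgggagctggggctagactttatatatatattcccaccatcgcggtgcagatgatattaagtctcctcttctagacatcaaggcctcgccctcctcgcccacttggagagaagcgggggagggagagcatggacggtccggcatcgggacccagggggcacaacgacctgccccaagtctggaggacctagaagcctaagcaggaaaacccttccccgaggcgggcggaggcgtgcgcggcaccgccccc
The RefSeq start of P4ha2 lies 829 bases downstream of the GENCODE vM21 start of the gene, so its window is inside the gene by that annotation, while the starts of P4ha1 are the same and that of Plod1 lies 9 bases upstream. P4ha1 and P4ha2 each held ACGTG 1 time, 16 and 78 bases before the start, and Plod1 held none. Plod3 and Serpinh1 also held it 1 time each, 54 and 171 bases before the start. Of all 32851 windows of this length, 16.6% held this core. The cyclic AMP element site core TGACG, searched on both strands, was found in P4ha2 (213 bases before the start) and in 17.8% of all windows. The longer TGACGTG, which contains both of those cores, was in none of the 5 windows and in 1.6% of all. CCACG, part of the endoplasmic reticulum stress element, was found 3 times in P4ha1, 2 times in P4ha2 and 1 time in Serpinh1, and in 28.3% of all windows. ACGTG and TGACG both lie within TGACGTG, and the matches are letters in a window, not known binding sites.

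The low values of long genes implied 37.9 to 59.05 M (1e6) fragments per library, which put 647 to 1458 fragments on Creb3l1. Adamts16 itself lay at 0.0635 to 0.235 FPKM in Adamts16+/-, 0.0677 to 0.125 FPKM in Adamts16+/H355Q and 0.0325 to 0.235 FPKM in WT libraries, too low to check the genotype labels. All 6 of 6 heart muscle markers were above 0 in every library, with Tnnt2 at 507 to 791 FPKM and Ryr2 at 12.6 to 24.3 FPKM. The first principal component of all genes carried 27.6% of the variance. On it the Adamts16+/- libraries (-18.7 to -11.8) lay beside WT libraries 1 to 4 (-19.6 to -12.2), and the Adamts16+/H355Q libraries (8.5 to 23.1) beside WT libraries 5, 6 and 7 (8 to 36.1). No label sets the WT libraries apart from each other, so all 7 entered the test, and results that rest on some of them are also given without them.

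Differences are on the log2 scale of FPKM plus 0.5, from limma fitted to 15172 genes with Benjamini-Hochberg adjustment over all of them, and a gene is called at an adjusted p under 0.05. Since Creb3l1 had been seen in the comparisons with Adamts16+/H355Q, the counts cover the other 9 genes. Against WT, 1 of the 9 was called in Adamts16+/- hearts (P4ha1, higher), where 2.75% of all genes tested were called and 1.57% were called higher. In Adamts16+/H355Q hearts limma called 0 of the 9, with 3 at an unadjusted p under 0.05 (Plod1, Plod2 and Loxl1), where 0.376% of all genes were called and 0.257% were called lower. Between the mutant genotypes 4 of the 9 were called, all higher in Adamts16+/- than in Adamts16+/H355Q (P4ha1, Plod1, Plod3 and Loxl1), where 10% of all genes were called and 5.71% were called higher. All Adamts16+/- libraries lay above all WT libraries for 2 of the 9 genes, against 3.4% of all genes tested. Adamts16+/H355Q libraries lay below all WT libraries for 0 of the 9, against 1.79% of all genes. All Adamts16+/- libraries lay above all Adamts16+/H355Q libraries for 5 of the 9, against 12.6% of all genes. The median difference of the 9 was 0.23, -0.05 and 0.30 in these comparisons, against 0.01, 0.02 and -0.02 over all genes tested. Between the mutants, P4ha1, Plod1 and Plod3 lost their calls with no filter on low values (adjusted p = 0.0588, 0.0771 and 0.0712). The Adamts16+/- and Adamts16+/H355Q libraries lie apart on the first principal component in the way that WT libraries 1 to 4 and 5 to 7 do, so a difference of allele and whatever splits the WT libraries cannot be told apart in the comparison of the mutants. Since the list was drawn up with results known, these counts describe it and are no evidence about the pathway. The comparisons share libraries and are not independent of each other.

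**Figure D1:**
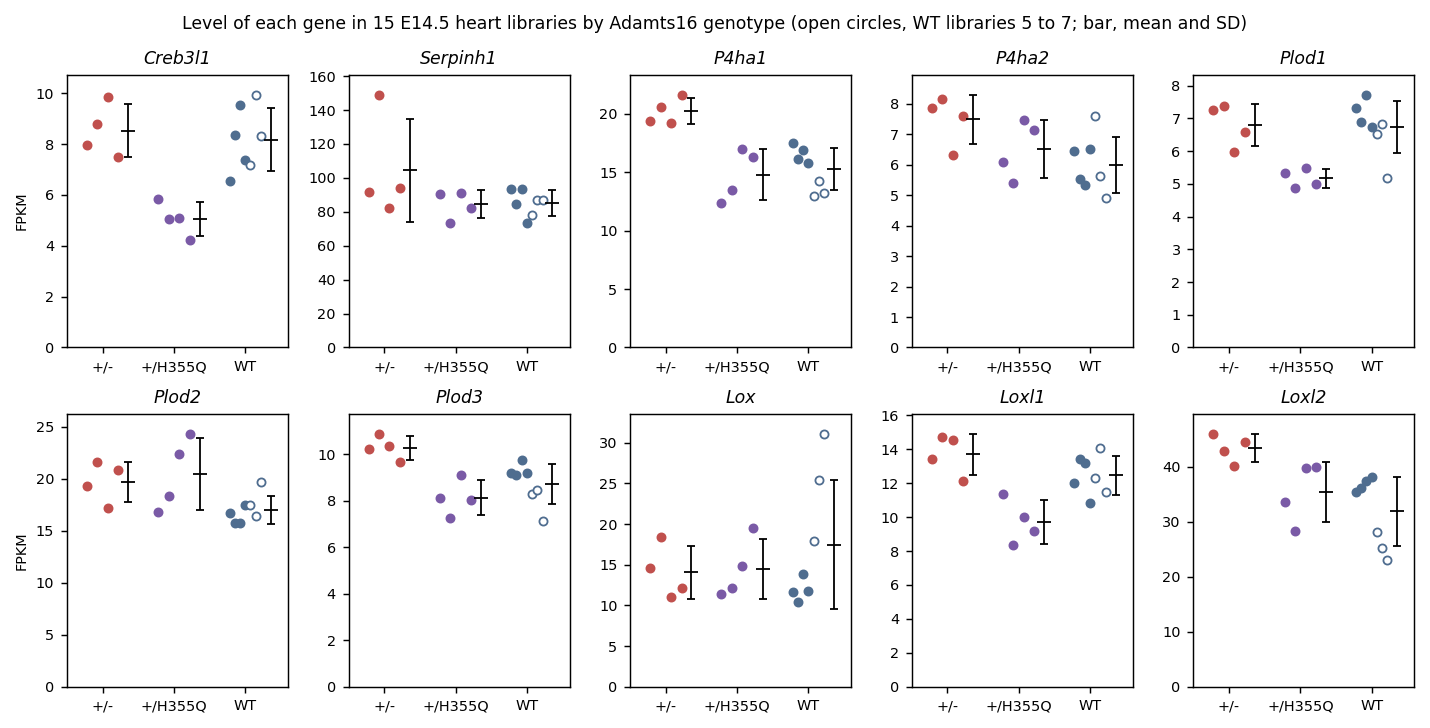
Level (FPKM, linear axis from 0) of each of the 10 genes in 4 Adamts16+/-, 4 Adamts16+/H355Q and 7 WT libraries; points are libraries, open circles are WT libraries 5 to 7, and bars are the mean and SD. Creb3l1 is at 4.21 to 5.84 FPKM in every Adamts16+/H355Q library, below all others, and P4ha1 is at 19.2 to 21.6 FPKM in every Adamts16+/- library, above all others.

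Values of mutant libraries are given in the order of their numbers, 1 to 4, and those of WT as the lowest, the median and the highest of 7. Creb3l1 stood at 7.96, 8.79, 9.86 and 7.48 FPKM in the 4 Adamts16+/- libraries and at 5.84, 5.06, 5.10 and 4.21 FPKM in the 4 Adamts16+/H355Q libraries. In WT libraries it was at 6.53 FPKM at the lowest, 8.32 at the median and 9.94 at the highest. Every Adamts16+/H355Q library lay below every library of the other genotypes, while Adamts16+/- and WT overlapped. The mean was 8.52 ± 1.04 FPKM in Adamts16+/- (SD, n = 4), 5.05 ± 0.66 in Adamts16+/H355Q (n = 4) and 8.18 ± 1.25 in WT (n = 7). As a description, Adamts16+/H355Q minus WT was -0.64 ± 0.11 (log2, SE; 95% interval -0.88 to -0.40) and Adamts16+/- minus Adamts16+/H355Q was 0.70 ± 0.13 (0.43 to 0.97). For Creb3l1, Adamts16+/- minus WT was 0.06 ± 0.11 (adjusted p = 0.805; 95% interval -0.18 to 0.30), a difference within the spread between libraries. Leaving out any 1 library moved Adamts16+/H355Q minus WT between -0.71 and -0.56, and it was -0.60 without WT libraries 5 to 7 and -0.69 without WT libraries 1 to 4. The intervals and ranges with Adamts16+/H355Q take no account of Creb3l1 having already been seen lower there. They are therefore no test of these differences. In whole hearts, fewer cells of a type and less RNA per cell cannot be told apart.

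Creb3l1 is expressed in fibroblasts, so their markers were read beside it. All 6 of 6 epicardial and fibroblast markers (Tcf21, Pdgfra, Dpt, Col1a1, Wt1 and Tbx18) were above 0 in every library. Their summed level was 134 to 178 FPKM in Adamts16+/-, 115 to 146 in Adamts16+/H355Q and 148 to 210 in WT. Without Col1a1, a collagen gene, the sums were 47.1 to 54.4, 50.4 to 53.8 and 47.5 to 71.6 FPKM in the same order, and no marker of the 6 separated Adamts16+/H355Q from WT libraries. Col1a1 itself overlapped only narrowly, at 64.4 to 95.76 FPKM in Adamts16+/H355Q and 95.62 to 142 FPKM in WT libraries. For Col1a1, Adamts16+/H355Q minus WT was -0.54 ± 0.13 (limma adjusted p = 0.0739). Among the markers of all lists, only Myh6, 1 of 6 heart muscle markers, separated Adamts16+/H355Q from WT libraries. Myh6 was at 477 to 541 FPKM in Adamts16+/H355Q, 544 to 894 in WT and 615 to 907 in Adamts16+/- libraries. Of all genes tested, 1.79% lay below all WT libraries in every Adamts16+/H355Q library. The part of these markers in the level of Creb3l1 was not tested.

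The level of Creb3l1 was also set against that of 5 fibrillar collagen chains (Col1a1, Col1a2, Col3a1, Col5a1 and Col5a2) within each library, where any scaling of the library cancels. Creb3l1 minus their mean log2 level was -2.88 to -2.28 in Adamts16+/-, -3.32 to -2.92 in Adamts16+/H355Q and -2.98 to -2.74 in WT. The Adamts16+/H355Q range lay below that of Adamts16+/- and overlapped that of WT at its upper end. The chains themselves had a mean log2 level of 5.65 to 6.09 in Adamts16+/-, 5.56 to 5.81 in Adamts16+/H355Q and 5.78 to 6.13 in WT.

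Among 12510 named genes, those whose log2 level followed Creb3l1 most closely over the 15 libraries were Mospd3 (Pearson r = 0.958), Ptpra (0.95), Bak1 (0.942), Arf6 (0.939) and Por (0.934). After the genotype means were removed, r was 0.858, 0.782, 0.873, 0.908 and 0.908 for these 5 genes in the same order. Mospd3 is a membrane protein with a motile sperm domain, Ptpra a receptor tyrosine phosphatase, Bak1 a mitochondrial effector of apoptosis, Arf6 a small GTPase of membrane traffic and Por the electron donor of cytochrome P450 enzymes. Mospd3 was at 5.05 to 6.07 FPKM in Adamts16+/-, 3.19 to 4.62 in Adamts16+/H355Q and 4.72 to 6.58 in WT libraries. Of the other 9 genes of the list, Loxl1 followed Creb3l1 most closely (r = 0.89, rank 31), and r was 0.671 for Plod1, 0.484 for Plod3 and -0.537 for Plod2. With the genotype means removed, r was 0.679 for Loxl1, -0.007 for Plod1, 0.081 for Plod3 and -0.532 for Plod2. For the type I collagen chains r was 0.83 for Col1a1 (rank 109) and 0.527 for Col1a2, and 0.78 and 0.579 with the genotype means removed. These values describe 15 libraries that share genotype and composition.

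Serpinh1 encodes HSP47, the collagen-specific chaperone of the endoplasmic reticulum, and was the most abundant of the 10 genes in every genotype. It was at 91.9, 149, 82.5 and 94.3 FPKM in the 4 Adamts16+/- libraries and at 90.7, 73.5, 91.1 and 82.2 FPKM in the 4 Adamts16+/H355Q libraries. The WT libraries ran from 73.3 FPKM through a median of 86.7 to 93.4 FPKM. Apart from Adamts16+/- library 2, the libraries of all 3 genotypes overlapped. That library also had the highest level of 3 of 4 skeletal muscle markers among all 15 libraries (Myh3 12.7, Myog 5.195 and Myod1 1.47 FPKM) and the highest sum of 5 cartilage markers (9.89 FPKM, against 2.69 to 8.87 in the others); their part in the level of Serpinh1 was not tested. For Serpinh1, Adamts16+/- minus WT was 0.26 ± 0.13 (adjusted p = 0.292) and was 0.075 without Adamts16+/- library 2. For Serpinh1, Adamts16+/H355Q minus WT was -0.013 ± 0.13 (adjusted p = 0.967), and Adamts16+/- minus Adamts16+/H355Q was 0.27 ± 0.15 (adjusted p = 0.237). Neither genotype's difference from WT exceeded the spread between libraries, and the 95% interval for Adamts16+/H355Q minus WT was -0.29 to 0.26. Relative to the 5 fibrillar chains, Serpinh1 stood 0.71 to 1.13 above them (log2) in Adamts16+/-, 0.60 to 0.93 in Adamts16+/H355Q and 0.32 to 0.77 in WT.

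P4ha1 and P4ha2 encode catalytic subunits of prolyl 4-hydroxylase, which pair with protein disulfide isomerase (P4hb). P4ha1 was at 19.4, 20.6, 19.2 and 21.6 FPKM in the 4 Adamts16+/- libraries and at 12.4, 13.5, 17.0 and 16.3 FPKM in the 4 Adamts16+/H355Q libraries. In WT it was at 13.0 FPKM at the lowest, 15.8 at the median and 17.5 at the highest. All 4 Adamts16+/- libraries thus lay above all others, and the ranges of Adamts16+/H355Q and WT overlapped. P4ha1 was higher in Adamts16+/- than in WT by 0.40 ± 0.098 (log2, SE; adjusted p = 0.0434), a 1.32-fold difference on this scale. It was higher in Adamts16+/- than in Adamts16+/H355Q by 0.45 ± 0.11 (adjusted p = 0.0247). Adamts16+/H355Q minus WT was -0.046 ± 0.098 (adjusted p = 0.836; 95% interval -0.26 to 0.16).

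The call of P4ha1 against WT was close to the threshold. It was lost when any of 8 libraries was left out (each Adamts16+/- library, and WT 2, 5, 6 or 7; adjusted p from 0.0517 to 0.119), with no filter on low values (0.0864) and with median-of-ratios scaling (0.0567). Without WT libraries 5 to 7, which had the 3 lowest WT values, the difference was 0.28 (adjusted p = 0.143). Without WT libraries 1 to 4 it was 0.57 (adjusted p = 0.00499). The call between the mutants was lost without Adamts16+/- library 1, 2 or 3 or Adamts16+/H355Q library 1 or 2 (adjusted p from 0.0505 to 0.0761).

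P4ha2 was at 7.87, 8.17, 6.34 and 7.60 FPKM in the 4 Adamts16+/- libraries and at 6.08, 5.41, 7.48 and 7.13 FPKM in the 4 Adamts16+/H355Q libraries. WT libraries ran from 4.89 FPKM through a median of 5.65 to 7.59 FPKM. The genotypes overlapped, and no comparison passed the test. Adamts16+/- minus WT was 0.31 ± 0.11 (adjusted p = 0.149), Adamts16+/H355Q minus WT was 0.11 ± 0.11 (0.607) and Adamts16+/- minus Adamts16+/H355Q was 0.19 ± 0.13 (0.335).

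**Figure D2:**
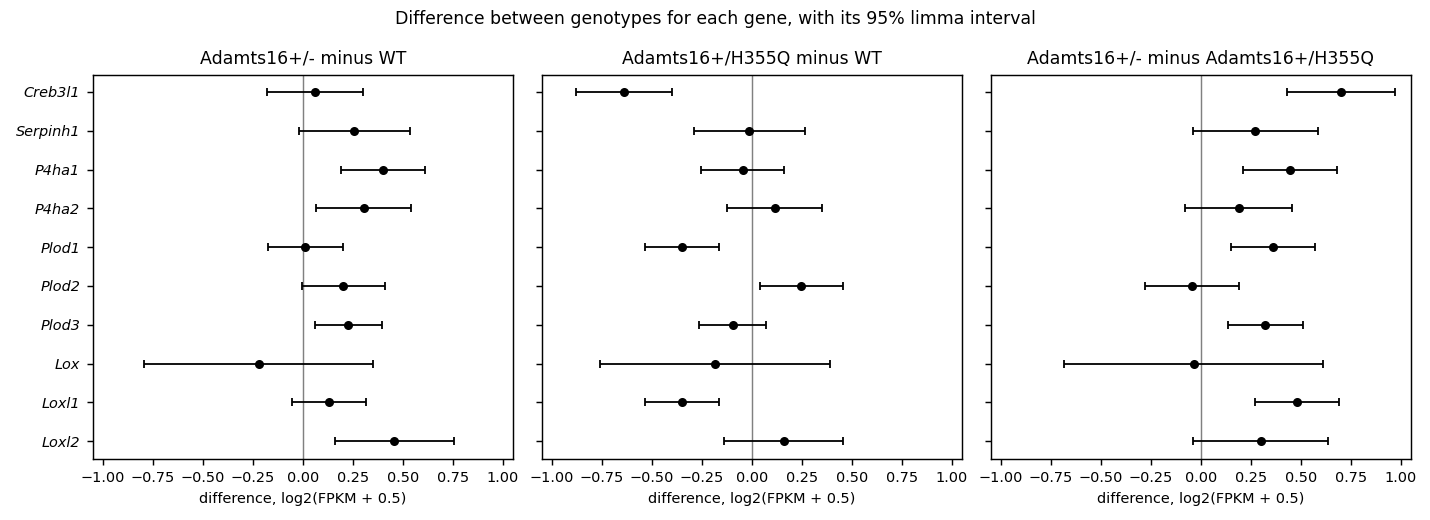
Difference between genotypes for each of the 10 genes on the log2(FPKM + 0.5) scale, with its 95% interval from limma (not adjusted for the number of genes); the panels show Adamts16+/- minus WT, Adamts16+/H355Q minus WT and Adamts16+/- minus Adamts16+/H355Q. The widest intervals are those of Lox, and in the last panel 8 of the 10 points lie above 0. The intervals of Creb3l1 in the panels with Adamts16+/H355Q take no account of its having been seen lower there before.

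The lysyl hydroxylases differ in what they modify: Plod1 acts on the helix, Plod2 on the telopeptides at the chain ends that form cross-links, and Plod3 also attaches sugar to hydroxylysine. Plod1 was at 7.26, 7.38, 5.98 and 6.57 FPKM in the 4 Adamts16+/- libraries and at 5.32, 4.86, 5.49 and 4.98 FPKM in the 4 Adamts16+/H355Q libraries. WT libraries ran from 5.19 FPKM through a median of 6.83 to 7.72 FPKM. All Adamts16+/H355Q libraries lay below all Adamts16+/- libraries, and WT library 7, the lowest of WT, lay among the Adamts16+/H355Q libraries.

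Plod1 was higher in Adamts16+/- than in Adamts16+/H355Q by 0.36 ± 0.099 (adjusted p = 0.034). For Plod1, Adamts16+/H355Q minus WT was -0.35 ± 0.088 (adjusted p = 0.0758), a value that passed without WT libraries 5 to 7 (-0.44, adjusted p = 0.00165) and was -0.23 (0.378) without WT libraries 1 to 4. For Plod1, Adamts16+/- minus WT was 0.013 ± 0.088 (adjusted p = 0.953; 95% interval -0.17 to 0.20). The call between the mutants was lost without Adamts16+/- library 1 or 2 or Adamts16+/H355Q library 1, 2 or 4 (adjusted p from 0.0636 to 0.0964).

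Plod3 was at 10.2, 10.9, 10.4 and 9.67 FPKM in the 4 Adamts16+/- libraries and at 8.12, 7.28, 9.11 and 8.05 FPKM in the 4 Adamts16+/H355Q libraries. WT libraries ran from 7.13 FPKM through a median of 9.12 to 9.77 FPKM. The 2 mutant genotypes did not overlap, and WT overlapped both. Plod3 was higher in Adamts16+/- than in Adamts16+/H355Q by 0.32 ± 0.088 (adjusted p = 0.0342), a call lost with median-of-ratios scaling (0.0581) and without any of 6 libraries (adjusted p from 0.0703 to 0.108; Adamts16+/- 1, 2 or 3 and Adamts16+/H355Q 1, 2 or 4). Adamts16+/- minus WT was 0.23 ± 0.078 (adjusted p = 0.126) and passed without WT libraries 1 to 4 (0.35, adjusted p = 0.017), but not without WT libraries 5 to 7. Adamts16+/H355Q minus WT was -0.096 ± 0.078 (adjusted p = 0.528).

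Plod2 took a different order from its relatives. It was at 19.3, 21.6, 17.2 and 20.8 FPKM in the 4 Adamts16+/- libraries and at 16.8, 18.4, 22.4 and 24.3 FPKM in the 4 Adamts16+/H355Q libraries. WT libraries ran from 15.7 FPKM through a median of 16.7 to 19.7 FPKM. The 3 genotypes overlapped and no comparison passed the test: Adamts16+/- minus WT was 0.20 ± 0.097 (adjusted p = 0.262), Adamts16+/H355Q minus WT 0.25 ± 0.097 (0.199) and Adamts16+/- minus Adamts16+/H355Q -0.044 ± 0.11 (0.827). Plod2 shares exon sequence with the antisense gene Gm38391, and Plod3 with Znhit1. The sources used here do not say whether strand was used in counting, so reads of these genes and their antisense partners may be mixed.

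**Figure D3:**
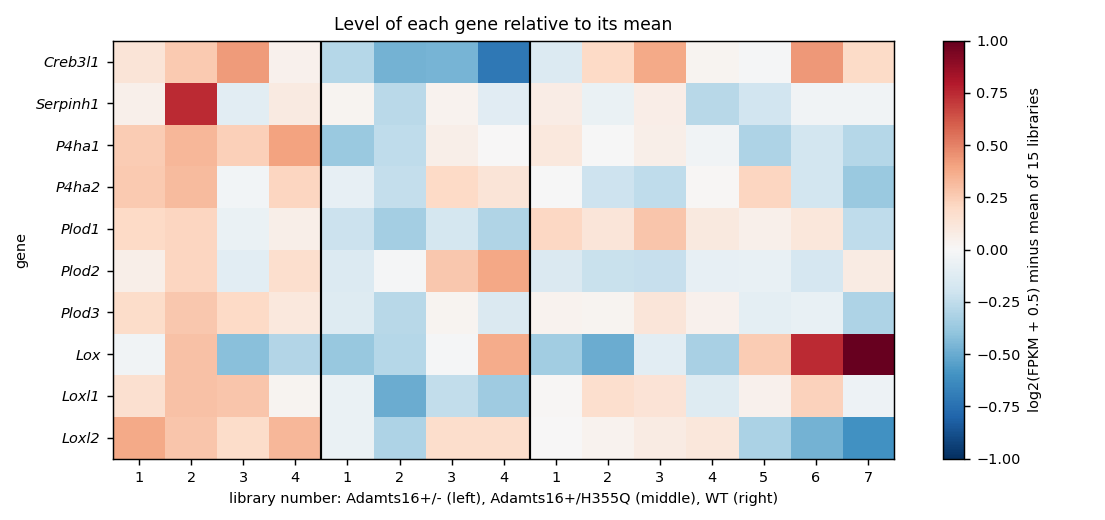
Level of each of the 10 genes in each library as log2(FPKM + 0.5) minus the gene's mean over 15 libraries, with red above and blue below the mean; columns are Adamts16+/- libraries 1 to 4, Adamts16+/H355Q libraries 1 to 4 and WT libraries 1 to 7. Creb3l1, Plod1 and Loxl1 are below their means in all 4 Adamts16+/H355Q libraries, and Lox and Loxl2 run opposite ways in WT libraries 5 to 7.

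Lox, Loxl1 and Loxl2 encode secreted lysyl oxidases. Loxl2 is known for cross-linking basement membrane collagen IV, and Loxl1 for the upkeep of elastic fibres. Loxl1 was at 13.4, 14.7, 14.6 and 12.1 FPKM in the 4 Adamts16+/- libraries and at 11.3, 8.33, 9.99 and 9.19 FPKM in the 4 Adamts16+/H355Q libraries. WT libraries ran from 10.9 FPKM through a median of 12.3 to 14.1 FPKM. The Adamts16+/H355Q libraries lay below all Adamts16+/- libraries, and only Adamts16+/H355Q library 1 reached into the WT range. Loxl1 was higher in Adamts16+/- than in Adamts16+/H355Q by 0.48 ± 0.099 (adjusted p = 0.0146), a call lost without Adamts16+/H355Q library 2 (adjusted p = 0.0509). Adamts16+/H355Q minus WT was -0.35 ± 0.088 (adjusted p = 0.0758) and passed without WT libraries 5 to 7 (-0.34, adjusted p = 0.0288), but not without WT libraries 1 to 4. Adamts16+/- minus WT was 0.13 ± 0.088 (adjusted p = 0.433).

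Loxl2, the second most abundant of the 10 genes, was at 46.0, 42.9, 40.1 and 44.5 FPKM in the 4 Adamts16+/- libraries and at 33.7, 28.4, 39.8 and 39.9 FPKM in the 4 Adamts16+/H355Q libraries. WT libraries ran from 23.1 FPKM through a median of 35.4 to 38.1 FPKM. Every Adamts16+/- library lay above every other library, by a narrow gap to Adamts16+/H355Q libraries 3 and 4. For Loxl2, Adamts16+/- minus WT was 0.46 ± 0.14 (adjusted p = 0.089), a larger difference than that of P4ha1 with a wider error. It was 0.24 (0.232) without WT libraries 5 to 7 and 0.76 (0.00304) without WT libraries 1 to 4. Adamts16+/- minus Adamts16+/H355Q was 0.30 ± 0.16 (adjusted p = 0.224), and Adamts16+/H355Q minus WT was 0.16 ± 0.14 (0.561). Loxl2 shares exon sequence with the antisense gene Gm27177, and Lox with AC161119.1.

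Lox was at 14.6, 18.4, 11.04 and 12.1 FPKM in the 4 Adamts16+/- libraries and at 11.4, 12.2, 14.8 and 19.5 FPKM in the 4 Adamts16+/H355Q libraries. In WT it was at 10.5 FPKM at the lowest, 13.8 at the median and 31.1 at the highest. WT libraries 5, 6 and 7 had 17.9, 25.5 and 31.1 FPKM, and WT libraries 1 to 4 had 10.5 to 13.8 FPKM. Adamts16+/- minus WT was -0.22 ± 0.27 (adjusted p = 0.694), -0.79 (0.0332) without WT libraries 1 to 4 and 0.21 (0.58) without WT libraries 5 to 7. Adamts16+/H355Q minus WT was -0.19 ± 0.27 (adjusted p = 0.748) and 0.24 (0.36) without WT libraries 5 to 7. Adamts16+/- minus Adamts16+/H355Q was -0.035 ± 0.30 (adjusted p = 0.95; 95% interval -0.68 to 0.61). The direction of Lox against WT was therefore set by the choice of WT libraries.

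**Figure D4:**
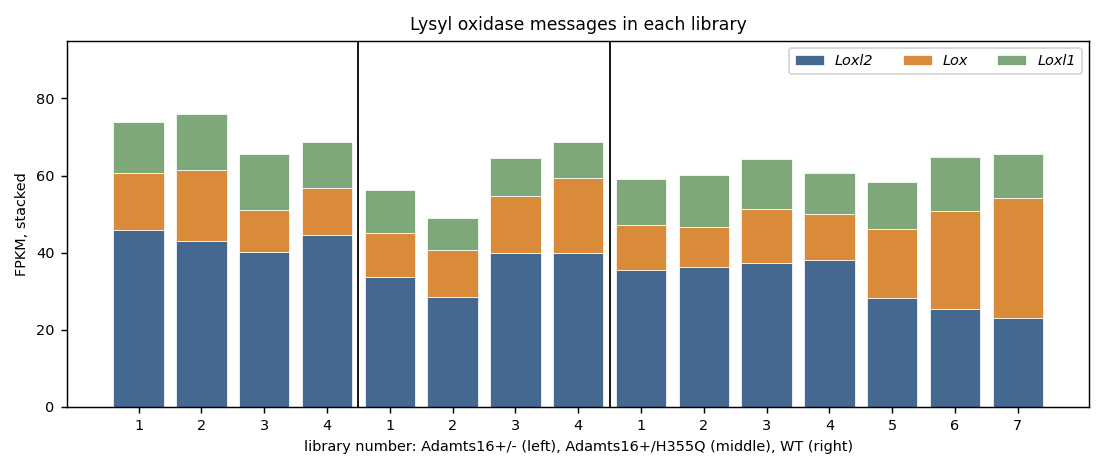
Stacked level (FPKM, linear axis from 0) of Loxl2, Lox and Loxl1 in each library of Adamts16+/-, Adamts16+/H355Q and WT. Lox makes up more, and Loxl2 less, of the bar in WT libraries 5 to 7 than in the other 12 libraries.

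Counted as a share of the summed FPKM of 5 lysyl oxidases, with Loxl3 and Loxl4 added, Lox was 16.4 to 23.4% in Adamts16+/-, 19.5 to 27.7% in Adamts16+/H355Q and 16.8 to 45.4% in WT. Loxl2 was 54.5 to 62.8% in Adamts16+/-, 55.9 to 59.7% in Adamts16+/H355Q and 33.7 to 60.8% in WT. In WT libraries 5 to 7 Lox took 29.6 to 45.4% and Loxl2 33.7 to 46.7%, while in WT libraries 1 to 4 Lox took 16.8 to 20.8% and Loxl2 56.1 to 60.8%. The summed level was 67.5 to 78.7 FPKM in Adamts16+/-, 50.8 to 70.3 in Adamts16+/H355Q and 60.3 to 68.4 in WT, so the WT libraries differed in makeup more than in total. Markers moved with this split: 5 of 5 endothelial markers (Pecam1, Cdh5, Tek, Kdr and Emcn) were above 0 in every library, and their sum was 160 to 169 FPKM in WT libraries 1 to 4 but 100 to 135 FPKM in WT 5, 6 and 7. The fibroblast sum without Col1a1 was 47.5 to 53.8 and 63.6 to 71.6 FPKM in the same WT libraries. Among tissues next to the heart, 5 liver markers, all above 0 in every library, summed to 3.38 to 13.5 and 28.3 to 43.0 FPKM. WT library 7, the highest for Lox and the lowest for Loxl2, also had the highest sums of 5 lung epithelium markers (81.1 FPKM, of which Sftpc made 71.6, against 0.0112 to 14.4 FPKM in the other libraries) and of 4 thymus markers (10.5 FPKM, against 0 to 8.76). Their part in the levels of Lox and Loxl2 was not tested.

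The endothelial markers also separated the mutant genotypes. Their sum was 148 to 153 FPKM in Adamts16+/- and 112 to 118 FPKM in Adamts16+/H355Q libraries. For 4 of the 5 genes (all but Emcn) the Adamts16+/- libraries lay wholly higher, as they did for 12.6% of all genes tested. So did Myh6 (1 of 6 heart muscle markers), Sox9 (1 of 4, valve mesenchyme) and Cnn1 (1 of 4, smooth muscle). Slc4a1 (1 of 5, erythroid), Csf1r (1 of 4, macrophage) and Comp (1 of 5, cartilage) lay wholly higher too. Dpt (1 of 6, epicardial and fibroblast) lay wholly lower, for which no share of all genes is given here. These marker values stand beside P4ha1, Plod1, Plod3 and Loxl1, which were higher in Adamts16+/-. The part of the markers in those differences was not tested. Against WT, whose endothelial sum was 100 to 169 FPKM, no endothelial marker separated either genotype. Other markers did separate Adamts16+/- from WT, beside the higher P4ha1 and Loxl2. Of all genes tested, 3.4% lay above all WT libraries in every Adamts16+/- library. Above all WT libraries lay 2 of 4 valve mesenchyme markers (Hapln1, 8.74 to 10.6 against 2.95 to 6.59 FPKM; Twist1, 3.06 to 4.07 against 1.71 to 2.79 FPKM), 2 of 4 smooth muscle markers (Cnn1 and Tagln), 1 of 4 skeletal muscle markers (Acta1) and 1 of 5 cartilage markers (Col9a1). Below all WT libraries lay Postn, the valve mesenchyme marker with the highest level, and 1 of 6 epicardial and fibroblast markers (Dpt, 4.21 to 5.22 against 9.15 to 33.4 FPKM). For all genes, the share lying below all WT libraries in every Adamts16+/- library is not given here. The summed level was 74.2 to 101 FPKM in Adamts16+/- and 97.0 to 113 FPKM in WT for valve mesenchyme, 652 to 829 and 535 to 809 FPKM for smooth muscle, 62.7 to 94.9 and 27.7 to 57.5 FPKM for skeletal muscle, and 5.31 to 9.89 and 3.31 to 5.47 FPKM for cartilage. Their part in the differences from WT was not tested.

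FPKM is scaled by gene length, so levels of different genes can be ranked. In Adamts16+/- hearts the order by mean was Serpinh1 (104 FPKM), Loxl2 (43.4), P4ha1 (20.2), Plod2 (19.7), Lox (14.1), Loxl1 (13.7), Plod3 (10.3), Creb3l1 (8.52), P4ha2 (7.49) and Plod1 (6.80). In Adamts16+/H355Q hearts it was Serpinh1 (84.4 FPKM), Loxl2 (35.4), Plod2 (20.5), P4ha1 (14.8), Lox (14.45), Loxl1 (9.71), Plod3 (8.14), P4ha2 (6.53), Plod1 (5.17) and Creb3l1 (5.05). In WT hearts it was Serpinh1 (85.1 FPKM), Loxl2 (31.9), Lox (17.4), Plod2 (17.0), P4ha1 (15.3), Loxl1 (12.5), Plod3 (8.74), Creb3l1 (8.18), Plod1 (6.75) and P4ha2 (5.998). Serpinh1 stood clear of its neighbour in all 3 genotypes, and so did Loxl2 in the mutants, while in WT the range of Loxl2 overlapped that of Lox. From the third place on, most neighbours overlapped; the exceptions were the steps below Loxl1 in Adamts16+/- and WT and below Lox in Adamts16+/H355Q. Creb3l1 was the lowest of the 10 in Adamts16+/H355Q and the third lowest in the other genotypes.

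Relative to the 5 fibrillar chains in the same library, P4ha2 stood at -2.97 to -2.72 (log2) in Adamts16+/-, -3.05 to -2.62 in Adamts16+/H355Q and -3.66 to -2.90 in WT. Plod2 was at -1.63 to -1.32 in Adamts16+/-, -1.47 to -0.92 in Adamts16+/H355Q and -2.11 to -1.65 in WT libraries. Both mutant ranges of Plod2 lay above that of WT, for Adamts16+/- by a narrow gap (-1.626 against -1.645). By this measure 3.01% of all genes lay wholly higher in Adamts16+/- and 26% in Adamts16+/H355Q. P4ha1 was at -1.70 to -1.26 in Adamts16+/-, -1.89 to -1.49 in Adamts16+/H355Q and -2.32 to -1.62 in WT, so that relative to collagen the ranges of Adamts16+/- and WT overlapped. Loxl1 was at -2.16 to -1.74, -2.47 to -2.02 and -2.51 to -2.08 in the same genotypes. For Plod1 the 3 ranges were -3.11 to -2.87, -3.23 to -3.04 and -3.59 to -2.82, so that Plod1 kept within the WT range relative to collagen in both mutants.

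The other genes of the pathway were taken from 7 lists by function, 60 genes of which 58 passed the filter (not Creb3l3 and Loxl4). In Adamts16+/- against WT 4 of the 58 were called, 2 higher and 2 lower, with 2.75% of all genes called. In Adamts16+/H355Q against WT 2 of the 58 were called, 1 in each direction, with 0.376% of all genes called. Between Adamts16+/- and Adamts16+/H355Q 7 of the 58 were called, 4 higher and 3 lower, with 10% of all genes called. With no filter on low values, the calls against WT were all lost, and between the mutants 3 of the 7 stood (Fkbp10, Pgk1 and Ankrd37). The 4 calls in Adamts16+/- against WT were also lost without WT libraries 5 to 7. The median difference of the 58 was 0.03, -0.04 and 0.06 in these comparisons.

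**Figure D5:**
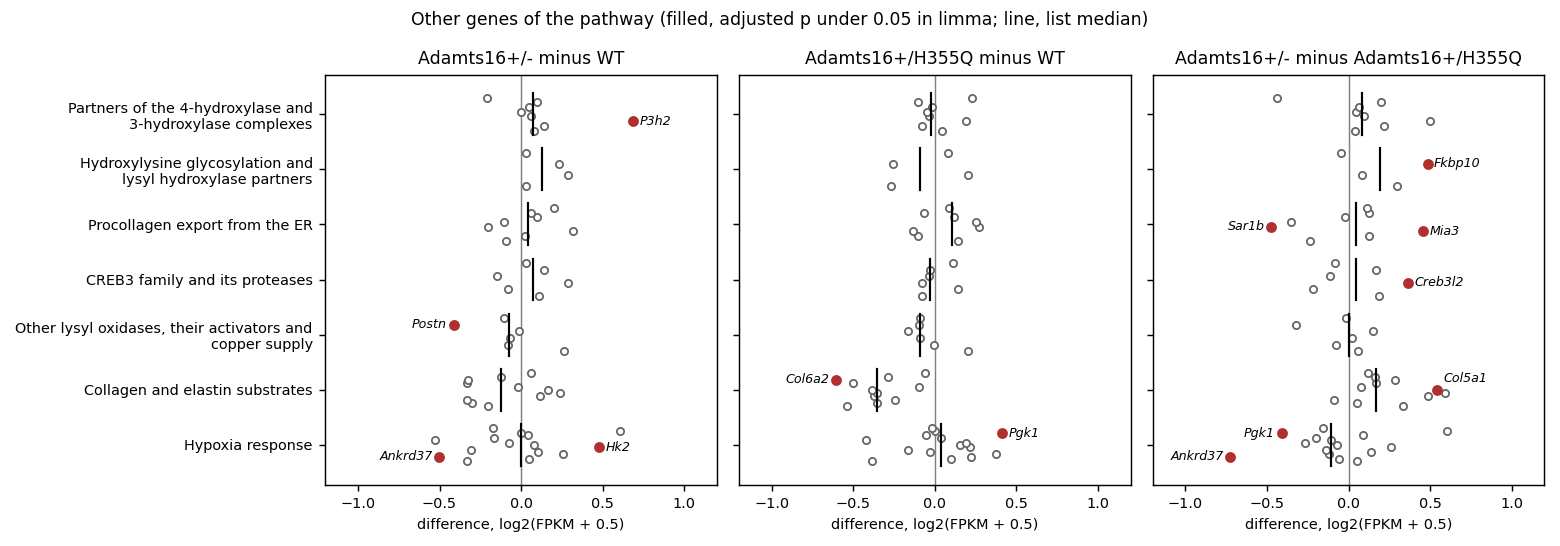
Difference between genotypes on the log2(FPKM + 0.5) scale for 58 other genes of collagen maturation in 7 lists by function; each point is a gene, filled points have an adjusted p under 0.05 in limma, and vertical lines are list medians. In Adamts16+/H355Q minus WT all 11 collagen and elastin genes lie below 0, with 1 of them (Col6a2) filled.

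Of 8 partners of the hydroxylases, P3h2 was called in Adamts16+/- against WT, where 2.75% of all genes were called. It encodes a prolyl 3-hydroxylase that acts on basement membrane collagen, and was at 8.30, 8.34, 7.63 and 7.27 FPKM in Adamts16+/- libraries and at 3.57 to 6.26 FPKM in WT libraries. All Adamts16+/- libraries lay above all WT libraries, and the difference was 0.69 ± 0.15 (adjusted p = 0.0316; 0.119 without WT libraries 5 to 7). The call of P3h2 was lost in 6 of the 15 fits that left out 1 library (limma adjusted p up to 0.107). P4hb, the shared subunit of the 4-hydroxylases, was at 126 to 142 FPKM in Adamts16+/- and 112 to 143 FPKM in WT libraries.

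Of the 4 genes for hydroxylysine glycosylation and lysyl hydroxylase partners, Fkbp10 was called between the mutants, where 10% of all genes were called. Its product is a chaperone that works with the telopeptide lysyl hydroxylase. Fkbp10 was at 26.3, 27.2, 24.8 and 25.0 FPKM in Adamts16+/- and at 19.9, 15.6, 20.2 and 18.0 FPKM in Adamts16+/H355Q libraries, without overlap. It was higher in Adamts16+/- by 0.48 ± 0.10 (adjusted p = 0.0167). This call was lost in 2 of the 15 fits that left out 1 library (limma adjusted p up to 0.0571).

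Of 8 genes for export of procollagen from the endoplasmic reticulum, 2 were called between the mutants, where 10% of all genes were called. Mia3, the receptor that loads procollagen into large carriers, was at 11.6 to 13.8 FPKM in Adamts16+/- and 7.93 to 10.1 FPKM in Adamts16+/H355Q libraries, higher by 0.46 ± 0.12 (adjusted p = 0.0288). Sar1b, the GTPase that starts coat assembly, went the other way, at 23.7 to 30.4 FPKM in Adamts16+/- and 34.1 to 40.2 FPKM in Adamts16+/H355Q libraries, and was lower in Adamts16+/- (-0.47 ± 0.14; adjusted p = 0.0437). The 2 called genes of this list thus moved in opposite directions. WT libraries 1 to 4 and 5 to 7 were at 10.5 to 12.3 and 8.21 to 9.22 FPKM for Mia3. For Sar1b they were at 25.5 to 26.5 and 32.2 to 40.4 FPKM. The mutant genotypes lie on the 2 sides of this split, so allele and split cannot be told apart. Of the 15 fits that left out 1 library, 5 lost the call of Mia3 (adjusted p up to 0.0803) and 8 that of Sar1b (up to 0.118).

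Among the relatives of Creb3l1 and their proteases, 1 of 6 tested was called between the mutants, where 10% of all genes were called. Creb3l2, which in mouse cartilage is known to drive secretory genes, was at 25.7 to 27.3 FPKM in Adamts16+/- and 18.0 to 22.3 FPKM in Adamts16+/H355Q libraries. It was higher in Adamts16+/- by 0.37 ± 0.097 (adjusted p = 0.031). This call was lost in 6 of the 15 fits that left out 1 library (adjusted p up to 0.0971). WT libraries 1 to 4 had 22.2 to 24.2 FPKM and WT libraries 5 to 7 had 17.7 to 20.7 FPKM of Creb3l2. Adamts16+/H355Q minus WT was -0.079 ± 0.086 for Creb3l2 (adjusted p = 0.65; 95% interval -0.26 to 0.11).

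Of the other lysyl oxidases, their activators and copper supply, 1 of 6 tested was called in Adamts16+/- against WT, where 2.75% of all genes were called. Postn, a matrix protein that helps activate Lox and also a valve mesenchyme marker here, was at 82.3, 80.2, 59.0 and 64.8 FPKM in Adamts16+/- and at 87.9 to 105 FPKM in WT libraries. It was lower in Adamts16+/- by -0.41 ± 0.11, with an adjusted p that rounds to 0.05 and lay just under the threshold. The value without WT libraries 5 to 7 was -0.34 (adjusted p = 0.163). The call of Postn was also lost in 13 of the 15 fits that left out 1 library, with a pseudocount of 1 (0.0501), with TPM scaling (0.0934) and with only the 2 groups (0.0586). Of the other valve mesenchyme markers, Hapln1 and Twist1 lay wholly higher in Adamts16+/- than in WT, and Sox9 averaged 4.13 and 2.54 FPKM in the same genotypes.

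Collagen and elastin genes, the substrates of these enzymes, had 1 of 11 called in Adamts16+/H355Q against WT and a list median of -0.35, with all 11 differences below 0, where 0.376% of all genes were called, the median over all genes was 0.02 and 6650 of 15172 differences were below 0. Col6a2, a chain of microfibrillar collagen VI, was at 10.9, 12.1, 10.5 and 8.14 FPKM in Adamts16+/H355Q and at 13.9 to 18.6 FPKM in WT libraries (-0.61 ± 0.12; adjusted p = 0.0422). This call was lost in 10 of the 15 fits that left out 1 library (adjusted p up to 0.188), with TPM scaling (0.0588), with only the 2 groups (0.0589) and without WT libraries 1 to 4 (0.112). Col5a1, which sets fibril diameter, was higher in Adamts16+/- (24.4 to 36.6 FPKM) than in Adamts16+/H355Q (18.9 to 21.9 FPKM), by 0.54 ± 0.13 (adjusted p = 0.0209). This call was lost in 5 of the 15 fits that left out 1 library (adjusted p up to 0.0623). WT libraries 1 to 4 had 25.3 to 31.7 FPKM and WT libraries 5 to 7 had 21.6 to 24.4 FPKM of Col5a1. In Adamts16+/- against WT the list median was -0.12.

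The hypoxia list was included because P4ha1, P4ha2, Plod2 and Lox are known targets of hypoxia-inducible factor. In Adamts16+/- against WT 2 of 15 were called, in opposite directions, where 2.75% of all genes were called. Hk2, the first enzyme of glycolysis, was at 17.0 to 19.3 FPKM in Adamts16+/- and 9.51 to 14.98 FPKM in WT libraries (0.48 ± 0.10; adjusted p = 0.0296). Ankrd37, a hypoxia-induced gene, was at 1.147 to 1.583 FPKM in Adamts16+/- and 1.63 to 2.68 FPKM in WT libraries (-0.50 ± 0.10; adjusted p = 0.0224). Ankrd37 was also lower in Adamts16+/- than in Adamts16+/H355Q (-0.72 ± 0.12; adjusted p = 0.00807). Of the 15 fits that left out 1 library, 5 lost the call of Hk2 against WT (limma adjusted p up to 0.108). The call of Ankrd37 against WT was lost in 3 (up to 0.094). WT libraries 1 to 4 had 1.63 to 2.25 FPKM and WT libraries 5 to 7 had 2.17 to 2.68 FPKM of Ankrd37, a narrow overlap. The part of this split in the difference of Ankrd37 between the mutants was not tested. The glycolytic enzyme Pgk1 was at 288 to 340 FPKM in Adamts16+/-, 379 to 461 in Adamts16+/H355Q and 290 to 356 in WT. Within WT it was at 290 to 303 FPKM in libraries 1 to 4 and 320 to 356 FPKM in libraries 5 to 7. It was higher in Adamts16+/H355Q than in WT (0.41 ± 0.082; adjusted p = 0.0436) and lower in Adamts16+/- than in Adamts16+/H355Q (-0.41 ± 0.092; adjusted p = 0.0186). The call of Pgk1 against WT was lost in 12 of the 15 fits that left out 1 library (adjusted p up to 0.188), with median-of-ratios scaling (0.0671), with only the 2 groups (0.104) and without WT libraries 1 to 4 (0.223). Between the mutants the call of Pgk1 was lost in 3 of the 15 fits that left out 1 library (limma adjusted p up to 0.061). The list median was 0.00, 0.04 and -0.11 in the 3 comparisons.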

How the data were processed

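Total RNA of E14.5 mouse hearts was extracted with TRIzol and made into libraries with a VAHTS Universal V6 kit, per the labels' protocols. Tools named in the submitters' processing notes are DESeq2, HTSeq, HISAT2, fastp and R 3.2.0, with no role or order given. The authors deposited FPKM values for 55335 gene identifiers in 15 libraries. How they were computed, on which genome build and annotation, and whether strand was used is not given in the sources used here. Symbols and coordinates came from GENCODE vM21 (GRCm38), which matched 55154 identifiers, and upstream sequences from RefSeq. Where 1 symbol had 2 identifiers (Aldoa), the one with the higher mean was used.

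Low values gave the implied depth, but only 58.6 to 69.0% of them were whole multiples of a fragment within a tolerance of 0.1, so whole reads were not recovered and no count test was run. The depth limits the precision of each value. No pair of libraries was identical.

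The test was limma 3.58.1 (R 4.3.3; empirical Bayes with a variance trend) on log2(FPKM + 0.5). It took the 15172 genes whose mean reached 0.5 FPKM, with genotype as the only term and all 15 libraries in 1 fit. Benjamini-Hochberg adjustment covered all genes tested. The pseudocount makes folds of low genes too small. Alternatives changed the pseudocount, filter, scaling, libraries in the fit and replicate block, and left out each library in turn.

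The genes, the pathway and marker lists, the tests and the alternatives were chosen with earlier results of these data known. The text names the 10 genes in every comparison, the called genes of each pathway list (at most 4 per list and direction) and the 5 genes most correlated with Creb3l1. P4hb, the markers Tnnt2 and Emcn and other list genes given with values were chosen after their values were seen.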

Additional observations from a re-analysis of the deposited data

Results flagged for a closer look

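For 4 of the 9 enzymes and chaperones the Adamts16+/- and Adamts16+/H355Q hearts differed from each other. The 2 genotypes were compared directly, and the WT libraries entered only the estimate of the spread. Adamts16+/- minus Adamts16+/H355Q was 0.447 for P4ha1 (limma adjusted p = 0.0247), 0.362 for Plod1 (0.034), 0.323 for Plod3 (0.0342) and 0.48 for Loxl1 (0.0146), all on the log2 scale. All 4 Adamts16+/- libraries lay above all 4 Adamts16+/H355Q libraries for each of these 4 genes, where 12.6% of all genes tested did so. The unlabelled split of the WT libraries ran the same way for P4ha1 (15.8 to 17.5 FPKM in WT 1 to 4 and 13.0 to 14.2 in WT 5 to 7) and Plod3 (9.12 to 9.77 and 7.13 to 8.48 FPKM), and the mutant genotypes lie on the 2 sides of it, so allele and split cannot be told apart. The same WT libraries overlapped for Plod1 (6.75 to 7.72 and 5.19 to 6.83 FPKM) and Loxl1 (10.9 to 13.4 and 11.5 to 14.1 FPKM). The part of the split in the differences of Plod1 and Loxl1 was not tested. In 30 groups of 4 to 7 libraries, the gap of the highest or lowest library to its neighbour, as a share of the group's range, passed Dixon's critical value in 0. The nearest was Serpinh1 in Adamts16+/- library 2 (149 FPKM, against 82.5 to 94.3 in the others), with a gap of 0.822 of the range, 0.992 of the critical value.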

How the results depend on the processing

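Pseudocounts of 1 and 0.1 kept every count of calls within 1.5 times. For Adamts16+/- against WT, 417 genes, 1 of the 10 genes and 4 pathway genes were called. The 10 are counted in this comparison only, since Creb3l1 had already been seen in those with Adamts16+/H355Q. These counts were 157, 0 and 0 with no filter, 59, 0 and 0 without WT libraries 5 to 7, 2903, 4 and 21 without WT libraries 1 to 4, and 61 to 463, 0 to 1 and 0 to 4 when 1 library was left out. Genes called were 754 with TPM scaling and 274 with only the 2 groups compared, and the 10 genes had 0 calls with median-of-ratios scaling. For Adamts16+/H355Q against WT, 57 genes and 2 pathway genes were called. These 2 counts were 24 and 0 with no filter, 24 and 0 with only the 2 groups compared and 3262 and 20 without WT libraries 5 to 7. They were 20 and 1 without WT libraries 1 to 4, and 21 to 1414 and 0 to 7 when 1 library was left out. Pathway genes called were 1 with median-of-ratios and 1 with TPM scaling. Of the 9 enzymes and chaperones limma called 0 in the main fit, and it called Plod1 and Loxl1 without WT library 7. For Adamts16+/- against Adamts16+/H355Q, 1524 genes and 7 pathway genes were called. These 2 counts were 580 and 3 with no filter, 3021 and 14 with only the 2 groups compared and 3491 and 18 without WT libraries 5 to 7. They were 2614 and 14 without WT libraries 1 to 4, and 285 to 2485 and 1 to 11 when 1 library was left out. The cause was not tested, except that fewer libraries or more genes enter some of these fits.

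Scaling moved the split of higher and lower calls. Adamts16+/- against WT had 238 higher and 179 lower, against 151 and 184 with median-of-ratios and 591 and 163 with TPM scaling. Adamts16+/H355Q against WT had 18 and 39, against 18 and 28 and 20 and 22. Adamts16+/- against Adamts16+/H355Q had 867 and 657, against 713 and 773 and 992 and 377.

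Same-numbered libraries did not deviate together: r was -0.227 to 0.205 over 12 pairs, above 0.1 in 4, so the numbers were not taken as pairs. With the replicate number as a block, which in effect sets WT libraries 5 to 7 aside, the counts were 8, 0 and 0 for Adamts16+/- against WT. Genes and pathway genes called were 2762 and 14 for Adamts16+/H355Q against WT and 2931 and 13 for Adamts16+/- against Adamts16+/H355Q.

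Differences that changed sign were all small or those of Lox. With the block and without WT libraries 5 to 7, Adamts16+/- minus WT was -0.075 for Plod1 and 0.207 for Lox, and Adamts16+/H355Q minus WT was 0.242 for Lox and -0.065 for Loxl2. Without WT libraries 1 to 4, Adamts16+/H355Q minus WT was 0.006 for Serpinh1, 0.12 for P4ha1 and 0.028 for Plod3. With TPM scaling it was 0.024 for Serpinh1, and Adamts16+/- minus Adamts16+/H355Q was 0.001 for Lox. Leaving out 1 library gave ranges through 0 for Adamts16+/- minus WT of Creb3l1 (-0.007 to 0.118) and Plod1 (-0.043 to 0.069), for Adamts16+/H355Q minus WT of Serpinh1 (-0.052 to 0.051) and P4ha1 (-0.114 to 0.032), and for Adamts16+/- minus Adamts16+/H355Q of Plod2 (-0.131 to 0.042) and Lox (-0.171 to 0.114). Of the other single-gene values, 326 kept direction and side of the threshold, 40 lost their call and 8 gained one, apart from the leave-one-out values.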
